A study of Rattus norvegicus with 8 samples.

Results

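The effect of U0126 on the transcripts of TNFα-treated chondrocytes was described by setting the arrays labelled U0126 and TNF-a-treated against those labelled TNF-a treated. These were 4 of the 8 arrays of the series, 1 per treatment in each of 2 independent experiments, and they were paired by the replicate number in their labels. All 31042 probe sets of the array other than its controls were read, of 31099 in all. The cells of every group were primary chondrocytes from the femoral condyles of newborn (1-day-old) Sprague Dawley rats, grown as monolayers and kept overnight without serum. All cultures first received U0126 or its solvent DMSO for 30 min. The TNFα group then received human TNFα (30 ng/ml) for 24 h after DMSO, and the U0126 and TNFα group received the same TNFα after U0126. The DMSO and U0126 groups had vehicle in place of TNFα. They served as the measure of what U0126 did without the cytokine. Each array held 1 culture, so each group had n = 2. The test used below takes out the difference in level between the 2 experiments. Its p-values therefore measure how unevenly the treatments acted in the 2 experiments, pooled over all groups.

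TNFα is an inflammatory cytokine that is raised in arthritic joints, where chondrocytes make matrix-degrading proteases and less cartilage matrix. Among the pathways it activates is the MEK/ERK cascade, in which the kinases MEK1 and MEK2 phosphorylate ERK1 and ERK2, which in turn activate transcription factors such as ELK1 and induce the EGR and ETS-family genes. U0126 is a small molecule that inhibits MEK1 and MEK2, so transcripts that depend on the cascade are the ones its addition is meant to expose. The intensities below are linear summary values of an Affymetrix rat array, and differences are on the log2 scale after each array was centred on its median, so that 1.00 is a doubling of intensity. Intensities of different probe sets cannot be set against each other.

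Markers of several cell types were read to describe the cultures. Since intensities of different probe sets cannot be set against each other, their sums do not rank the cell types. Of 12 chondrocyte markers 10 were measured, and the mean intensity of Col2a1 (type II collagen) under TNFα was 27120. In experiments 1 and 2 the 10 summed to 135973 and 90865 under TNFα and to 174538 and 118389 under U0126 and TNFα. The 18 measured macrophage and leukocyte markers, of 20 listed, summed to 5811 and 7420 under TNFα in experiments 1 and 2 and to 5066 and 6080 under U0126 and TNFα. Their leukocyte-wide member Ptprc lay at 66.4 and 67.1 on average. The 9 measured endothelial markers summed to 2113 and 2435 against 2122 and 2468, the 8 muscle markers to 1319 and 1429 against 1348 and 1426, and the 4 red-cell markers to 1841 and 1760 against 1817 and 1850. The 7 osteoblast markers summed to 29586 and 34362 against 31804 and 36016, and the 8 fibroblast markers to 51839 and 64265 against 48626 and 61844. No member of these last 5 lists passed the test given below. In bulk RNA, fewer cells of a type and less RNA per cell cannot be told apart.

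U0126 raised 40 probe sets and lowered 39 in TNFα-treated cells, by a linear model (limma) over all 8 arrays with a Benjamini-Hochberg adjusted p under 0.05. These are 0.254% of the probe sets tested, or 0.129% higher and 0.126% lower. The 40 held 29 named genes and the 39 held 30. At an unadjusted p under 0.05 there were 3927 probe sets, 12.7%. A plain rule of size, a change of 1.5-fold or more that goes one way in both experiments, was met by 186 probe sets (0.599%), with 67 higher (0.216%) and 119 lower (0.383%). Among the 79 probe sets, 59 met it. None reached 1.5-fold in opposite directions. In the first experiment 460 probe sets were lower by 1.5-fold, against 323 in the second, and 86 of the 119 had the larger difference in the first. For increases the numbers were 175 and 259, and 39 of the 67 had the larger difference in the first. The probe sets nearest the threshold were unnamed ones at adjusted p of 0.0483 and 0.0490 inside it, and Plk2 (0.0515), Cyp1b1 (0.0522) and a dimmer Sox6 probe set (0.0525) outside it. The count was 0 when the experiment was not in the model or when either U0126 and TNFα array was left out, 18 and 416 without the first and second TNFα array, 32 without either DMSO array and 31 without either U0126 array, so single genes are given below with their values in every culture.

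**Figure D1:**
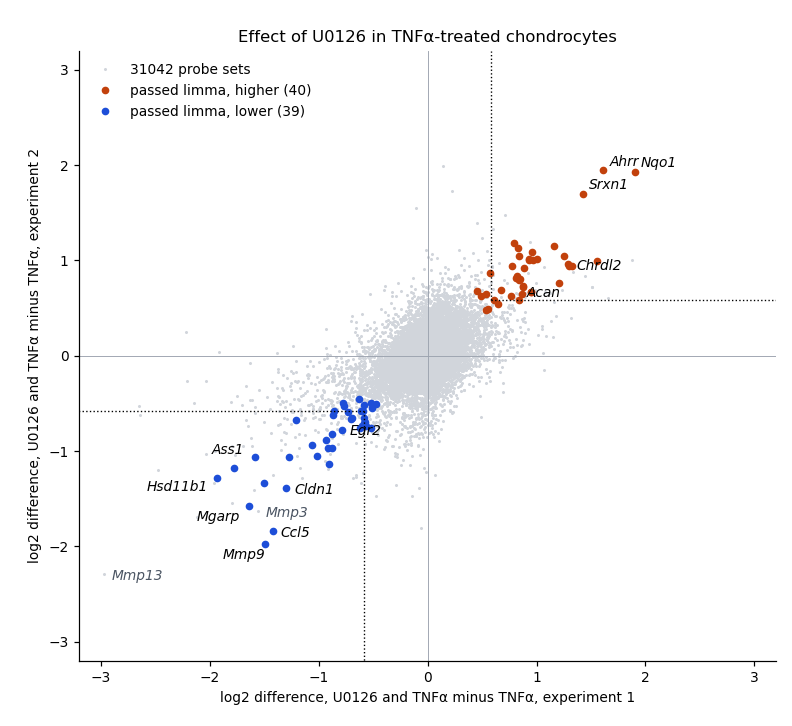
Each point is 1 probe set, placed by its log2 difference between U0126 with TNFα and TNFα in experiment 1 (horizontal) and experiment 2 (vertical). Orange (40, higher) and blue (39, lower) points passed limma, grey points did not, and the dotted corners mark a 1.5-fold difference in both experiments. Nqo1 and Ahrr lie farthest to the upper right, and Mmp13, which did not pass, farthest to the lower left.

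The largest increases that passed, those of Nqo1 and then Ahrr, were in genes of the aryl hydrocarbon receptor battery. That ligand-activated transcription factor induces the battery together with its partner ARNT at sites with the core GCGTG. Nqo1, a quinone reductase, had intensities of 4162 and 3898 under TNFα and of 15552 and 14867 under U0126 and TNFα in experiments 1 and 2. The difference was 1.92 ± 0.11 (SE, n = 2; adjusted p = 0.00842), or 3.77-fold. Ahrr, a repressor of the receptor, went from 253.5 and 235.6 to 775 and 907.5 (1.78 ± 0.09, adjusted p = 0.00842). Tiparp, an ADP-ribosyltransferase that also restrains the receptor, went from 1731 and 1706 to 3296 and 3412 (0.96 ± 0.07, adjusted p = 0.0110). In all 3 genes every culture with U0126 lay above every culture without it, whether TNFα was present or not. Of 12 genes listed for this battery 10 were measured, 3 rose and none fell, against 0.183% of 14217 genes rising and 0.183% falling. The median difference was 0.52 against 0.003 over all genes. Calls in the lists below stand against the same 0.183% each way. The lists were chosen with earlier results of these data known, so such values describe them and are no test. Cyp1b1, a cytochrome P450 of the battery, had 7196 and 9329 under TNFα and 15130 and 17853 with both (1.00 ± 0.13, adjusted p = 0.0522).

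The promoters of Ahrr and Tiparp are printed since both genes moved with the battery and hold its core motif. The sequences are the 250 bases before and the 50 after the annotated start, from RefSeq (GRCr8), 5′ to 3′ on the gene's own strand. Capitals mark GCGTG or, where the match is on the other strand, its complement CACGC.
Ahrr promoter, chr1:30821969-30822268, plus strand: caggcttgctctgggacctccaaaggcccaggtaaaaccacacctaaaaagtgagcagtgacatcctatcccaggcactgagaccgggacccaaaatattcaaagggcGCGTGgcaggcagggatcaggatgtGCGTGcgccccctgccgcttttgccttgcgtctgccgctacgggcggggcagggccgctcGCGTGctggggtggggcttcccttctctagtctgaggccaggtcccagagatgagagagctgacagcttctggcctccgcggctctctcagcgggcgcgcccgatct
Tiparp promoter, chr2:152063519-152063818, plus strand: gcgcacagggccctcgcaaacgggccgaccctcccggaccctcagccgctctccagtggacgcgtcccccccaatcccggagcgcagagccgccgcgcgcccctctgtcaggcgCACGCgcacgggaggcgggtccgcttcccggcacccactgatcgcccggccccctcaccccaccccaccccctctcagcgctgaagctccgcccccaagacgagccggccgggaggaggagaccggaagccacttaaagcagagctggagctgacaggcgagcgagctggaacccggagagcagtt
Ahrr held 3 matches, at -142, -117 and -57 from the start, and Tiparp 1, at -136. Both strands were searched. Over the called genes, promoters were found for 26 of the 29 raised and 20 of the 30 lowered genes. GCGTG was in 16 of the 26 (61.5%) and 9 of the 20 (45%), in 45.8% of the 11734 promoters of genes on the array and in 31.1% of all 27457 promoters, so it is a common string and a match is a description of the letters only.

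Raised genes also belonged to the antioxidant response, which the factor NRF2 drives when thiols are oxidised or modified. Of 31 listed 27 were measured, 4 rose, none fell, 19 were higher at an unadjusted p under 0.05 (6.26% of all genes were), 23 were higher in both experiments (33.0% of all genes were) and the median was 0.30. Srxn1, which repairs over-oxidised peroxiredoxins, went from 735.6 and 657.9 to 1642 and 1458 (1.15 ± 0.07, adjusted p = 0.00909). A dimmer Srxn1 probe set rose by 1.56 (adjusted p = 0.0156), next in size after Nqo1 and Ahrr. Gclc, the catalytic subunit of the enzyme that limits glutathione synthesis, went from 833.6 and 942.8 to 1527 and 1562 (0.80 ± 0.07, adjusted p = 0.0160). Gsta1, a glutathione transferase whose probe set may also read near-identical family members, went from 4264 and 6147 to 10441 and 12021 (1.13 ± 0.12, adjusted p = 0.0341). Pir, an iron-binding nuclear protein, went from 516.4 and 610.7 to 1003 and 1300 (1.02 ± 0.07, adjusted p = 0.0110). In all 4 genes both cultures with U0126 and TNFα lay above both with TNFα. Nqo1 was counted with the battery above and not in this antioxidant list. The promoter of Pir, printed for its matches to the antioxidant response element TGACNNNGC (capitals, both on the reverse strand and so shown as the complement), runs as follows.
Pir promoter, chrX:33851000-33851299, minus strand: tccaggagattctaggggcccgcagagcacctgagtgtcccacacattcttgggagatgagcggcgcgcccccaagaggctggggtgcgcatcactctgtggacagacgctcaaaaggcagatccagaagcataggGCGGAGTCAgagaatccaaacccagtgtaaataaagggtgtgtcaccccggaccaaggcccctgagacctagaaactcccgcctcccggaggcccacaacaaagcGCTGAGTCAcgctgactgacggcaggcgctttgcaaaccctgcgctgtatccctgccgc
The matches start at -114 and -9. The motif was in 2 of the 26 promoters of raised genes (7.69%), in 2 of 20 of lowered genes (10.0%), in 14.4% of the promoters of genes on the array and in 12.2% of all promoters. AP-1 sites (TGANTCA), which overlap the antioxidant element in sequence, were in 7.69%, 5.0%, 5.44% and 7.33% of the same sets in that order, and the EGR site GCGNGGGCG was in 3.85%, 0, 9.47% and 5.29%.

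A second group of raised genes belonged to cartilage. Acan, the core protein of aggrecan and the main proteoglycan of cartilage, had 14421 and 7741 under TNFα and 23017 and 12441 under U0126 and TNFα (0.68 ± 0.07, adjusted p = 0.0215). Its other probe set gave 0.83 ± 0.07 (adjusted p = 0.0160). Cnmd (chondromodulin), an angiogenesis inhibitor made by cartilage, went from 9005 and 5189 to 16469 and 8533 (0.79 ± 0.08, adjusted p = 0.0331). Hapln1, the link protein that fastens aggrecan to hyaluronan, went from 4215 and 2342 to 5928 and 3621 at one probe set (0.56 ± 0.07, adjusted p = 0.0397), while the probe set with its highest level gave 0.57 ± 0.10 (adjusted p = 0.0829). In these 3 genes the second culture with both agents lay below the first with TNFα, so the treatments overlap, while each pair moved upwards. With DMSO alone Acan stood at 21577 and 11287, a little below its intensities with U0126 and TNFα. C1qtnf3 (cartducin), a secreted cartilage protein, went from 2137 and 1406 to 5352 and 2703 (1.13 ± 0.15, adjusted p = 0.0483). Chrdl2, a secreted BMP antagonist of the chordin family, went from 189.6 and 149.8 to 466.9 and 288.2 (1.12 ± 0.10, adjusted p = 0.0160). The treatments did not overlap in either of these genes.

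The other large increases were of mixed function. Ddit4l, a stress-induced inhibitor of mTOR signalling, rose from 671.3 and 1445 to 1601 and 2978 (1.15 ± 0.12, adjusted p = 0.0296), and Hspb8, a small heat shock protein, from 904.1 and 1254 to 1620 and 2584 (0.94 ± 0.08, adjusted p = 0.0156). Pcp4l1 rose by 0.99 (adjusted p = 0.0467) and Cmtm5 by 0.98 (adjusted p = 0.0469). Ramp1, a co-receptor for calcitonin gene-related peptide, rose from 222.4 and 397.3 to 429.2 and 633.2 (0.81 ± 0.09, adjusted p = 0.0333). Cd24, a cell-surface glycoprotein, had 1278 and 1217 under TNFα and 4694 and 2441 with U0126 (1.44 ± 0.23, adjusted p = 0.0756). The paired differences of Cd24 were 1.88 and 1.0 on the log2 scale.

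All 10 measured chondrocyte markers were higher in both experiments (33.0% of all genes were), with a median of 0.52. Acan and Cnmd were the 2 of them that passed. Clec3a, a cartilage lectin singled out here for the largest difference of the list (1.14 ± 0.26, adjusted p = 0.152), went from 823.3 and 348.5 to 2244 and 622.3. Col2a1 had 29958 and 24282 under TNFα and 30957 and 26695 with U0126 (0.09 ± 0.06, adjusted p = 0.602), near the highest intensity of the 8 arrays, 34845. Among 20 measured genes of noncollagenous cartilage matrix, of 27 listed, 2 rose (the same Acan and Cnmd), 11 were higher in both experiments and the median was 0.14. Among the 28 cartilage collagens and their modifying enzymes none passed, with a median of 0.07. Col9a3, a type IX collagen chain, had the smallest p among them, with a difference of 0.41 (adjusted p = 0.0733). Sox6, a chondrogenic factor, differed by 0.39 at its main probe set (adjusted p = 0.286), and none of 14 measured chondrogenic transcription factors passed (median 0.01). None of 21 genes of proteoglycan and hyaluronan synthesis (median 0.08) and none of 15 genes of hypertrophy and mineralization (median 0.12) passed.

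**Figure D2:**
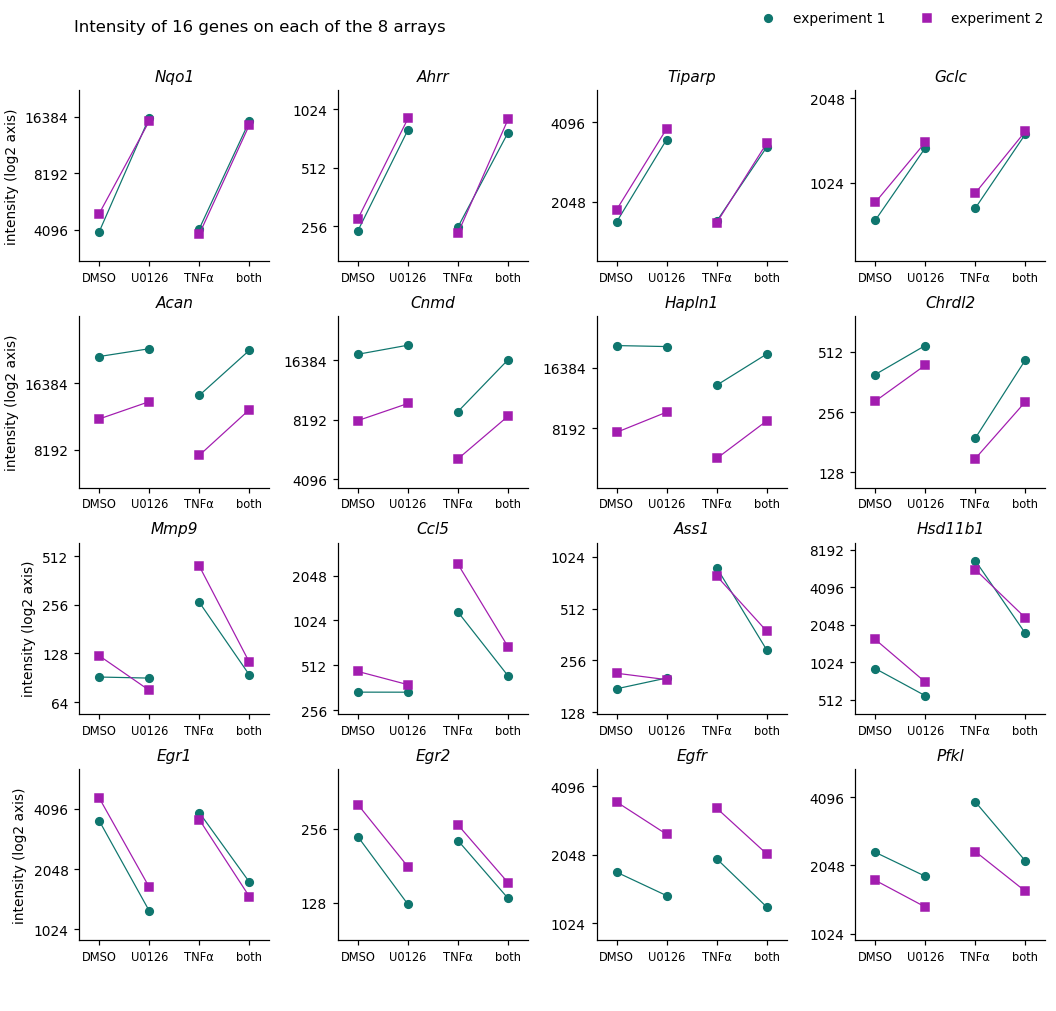
Intensity (log2 axis) of 16 genes on each of the 8 arrays, with circles for experiment 1 and squares for experiment 2, and lines joining the culture without U0126 to the culture with it ("both" is U0126 and TNFα). Nqo1, Ahrr, Tiparp and Gclc are higher with U0126 on both sides, while Mmp9, Ccl5 and Ass1 lie farther apart where TNFα was added; Egr1 and this Hapln1 probe set did not pass limma.

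The largest decrease that passed was in Mmp9, a gelatinase. It had 265.1 and 444 under TNFα and 94.1 and 112.7 under U0126 and TNFα (-1.74 ± 0.20, adjusted p = 0.0394), and 91.4 and 123.8 with DMSO. A second Mmp9 probe set differed by -0.91 (adjusted p = 0.0698). At the first probe set the U0126 and TNFα cultures thus lay within the range of the DMSO cultures. Of 17 measured matrix metalloproteinases, of 18 listed, 1 fell and none rose, against 0.183% of genes, and 4 were 1.5-fold lower in both experiments (0.577% of genes were). The other 3 did not pass, with larger standard errors. Mmp13, the main collagenase of rodent cartilage, had 17892 and 5810 under TNFα and 2285 and 1185 with U0126 (-2.63 ± 0.57, adjusted p = 0.138). Mmp3 (stromelysin) had 25621 and 11191 against 8713 and 3628 (-1.59 ± 0.66, adjusted p = 0.384), and Mmp12, an elastase, had 814.2 and 551.4 against 208.7 and 218.4 (-1.65 ± 0.31, adjusted p = 0.0989). The median over the 17 was -0.06. In both experiments 9 were lower (30.5% of all genes were) and 3 higher (33.0% of all genes were). At an unadjusted limma p under 0.05, 6 were lower (7.43% of all genes were).

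Other proteases and their inhibitors gave few calls. Adamts5, an aggrecanase, had 8068 and 4447 under TNFα and 2488 and 2304 with U0126 (-1.32 ± 0.22, adjusted p = 0.0837), the only 1 of 16 ADAM and ADAMTS genes past 1.5-fold in both experiments (median -0.13, none passed). Ctss (cathepsin S), a lysosomal protease of antigen-presenting cells, fell from 1070 and 2270 to 720.1 and 1399 (-0.63 ± 0.07, adjusted p = 0.0393). It was the 1 of 12 cathepsins that passed (median -0.11), against 0.183% of all genes lowered. Among 17 protease inhibitors and genes of plasminogen activation none passed (median -0.22). In both experiments 3 were 1.5-fold lower (0.577% of all genes were). Timp1, an inhibitor of metalloproteinases, had 13148 and 8539 against 5378 and 5375 (-0.98 ± 0.19, adjusted p = 0.107).

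Among the inflammatory genes, Ccl5, a chemokine for T cells and monocytes, fell from 1165 and 2442 to 434.3 and 680.6 (-1.63 ± 0.19, adjusted p = 0.0381). It was the 1 of 30 measured chemokines that passed, while 19 were lower in both experiments (30.5% of all genes were), 4 were 1.5-fold lower in both and the median was -0.32. Ccl9 had 820.5 and 514.6 against 147.9 and 224.8 (-1.83 ± 0.27, adjusted p = 0.0655). Cxcl1, a neutrophil chemokine, had 9139 and 3637 against 3702 and 1384 (-1.35 ± 0.39, adjusted p = 0.240). Ccl2, a monocyte chemokine, had 14036 and 17104 against 8005 and 14809 (-0.51 ± 0.26, adjusted p = 0.480), so that with U0126 it stayed far above its 279 and 833 with DMSO. Csf1, the macrophage growth factor, had 8119 and 7183 against 6399 and 6182 (-0.28 ± 0.11, adjusted p = 0.354). Of 37 measured cytokines and receptors 1 fell, against 0.183% of all genes (list median -0.05). It was Ifngr1, a chain of the interferon-γ receptor, which went from 3862 and 4677 to 2701 and 3325 (-0.50 ± 0.06, adjusted p = 0.0394).

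The NF-κB group, of subunits and of genes that feed back on that pathway, had no call among 26 measured members. Their median was -0.17, and 18 were lower in both experiments (30.5% of all genes were). Tnfaip3 (A20), a deubiquitinase that dampens NF-κB, had 3842 and 3930 under TNFα, 2511 and 2584 with U0126 and 586.7 and 728.7 with DMSO (-0.61 ± 0.09, adjusted p = 0.0695). Of 29 genes of prostaglandin, nitric oxide and acute-phase pathways 1 fell. In both experiments 5 were 1.5-fold lower (0.577% of all genes were), and the median was -0.25. The one that fell was Ass1, which regenerates arginine for nitric oxide synthesis, from 884.8 and 791.3 to 294.1 and 378.2 (-1.33 ± 0.13, adjusted p = 0.0275). Lbp, which carries bacterial lipopolysaccharide, had 12642 and 6200 against 4192 and 2342 (-1.50 ± 0.32, adjusted p = 0.129). Among interferon-stimulated genes (37 measured, median 0.14), antigen presentation genes (21, median -0.07) and complement genes (18, median -0.03) none passed.

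Genes outside those lists were among the largest decreases. Hsd11b1, which regenerates active glucocorticoid in the cell, fell from 6678 and 5660 to 1741 and 2320 (-1.61 ± 0.20, adjusted p = 0.0469). Mgarp, a mitochondrial protein, fell from 2545 and 668.5 to 813.7 and 223.8 (-1.61 ± 0.19, adjusted p = 0.0393), and Plscr1, an interferon-inducible scramblase, from 5271 and 2185 to 2179 and 1048 (-1.17 ± 0.10, adjusted p = 0.0156). In Mgarp the experiments lay several-fold apart and the change was of like size in both. Cldn1, a tight-junction protein, had 352.8 and 681.1 against 276.8 and 415.6 at its brightest probe set (-0.53, adjusted p = 0.0942) and differed by -0.64 at the next (adjusted p = 0.149), while the dimmest of its 3 probe sets fell from 137.5 and 848.5 to 55.9 and 325.2 (-1.34 ± 0.10, adjusted p = 0.0125). Cyp7b1, an oxysterol hydroxylase, fell from 331.4 and 265.2 to 158.9 and 138.1 (-1.0 ± 0.07, adjusted p = 0.0110). Vwa1, a matrix protein, fell by 0.92 (adjusted p = 0.0210), Arrdc4, an α-arrestin, by 0.94 (adjusted p = 0.0381) and Hrct1 by 0.94 (adjusted p = 0.0469). Among the genes lower by the fold rule Plac8 came next to Mmp13, with 761.2 and 1533 against 175.5 and 474.6 (-1.90 ± 0.27, adjusted p = 0.0619). Fcgr2b, an inhibitory Fc receptor of leukocytes, went from 65.8 and 57.8 to 32.5 and 27.9 (-1.03 ± 0.11, adjusted p = 0.0341), at the dim end of the array, where no detection call was available. It was the 1 of 18 macrophage markers that passed. Of the others, Cd68 differed by -0.66 (adjusted p = 0.134) and Cd14 by -0.59 (adjusted p = 0.196), with a list median of -0.08. The part of such cells in the lower Ccl5, Mmp9 and Ctss was not tested.

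Among genes known as direct targets of the ERK cascade few passed. Egr2, a zinc finger factor, fell from 229 and 265.2 to 133.1 and 154.2 (-0.78 ± 0.09, adjusted p = 0.0397), although a second Egr2 probe set differed by 0.11 (adjusted p = 0.528), the other way. Egr1, the best known of the family, had 3923 and 3618 under TNFα and 1762 and 1490 with U0126 (-1.22 ± 0.16, adjusted p = 0.0556). Both lay lower with U0126 in every culture pair, with or without TNFα. Of the 6 EGR and NAB genes 1 fell, against 0.183% of all genes (list median -0.21). At an unadjusted limma p under 0.05, 3 were lower (7.43% of all genes were). Among 15 ERK feedback phosphatases, Sprouty genes and PEA3 factors none passed at the probe set with the highest level, and the median was -0.18. In both experiments 10 were lower (30.5% of all genes were) and none was higher (33.0% of all genes were). Dusp6, a phosphatase of ERK, had 643.3 and 785.8 against 420.2 and 518.3 (-0.61 ± 0.11, adjusted p = 0.0940). Etv5, a PEA3-family ETS factor, had 802.8 and 1183 against 316.1 and 641.7 (-1.11 ± 0.21, adjusted p = 0.0989), and a dimmer Etv5 probe set differed by -0.004 (adjusted p = 0.990). Its relative Etv1 had 489.5 and 701.6 against 271.8 and 478 at its main probe set (-0.70 ± 0.10, adjusted p = 0.0655), and a second, dimmer Etv1 probe set fell (-0.60 ± 0.07, adjusted p = 0.0397). None of 11 AP-1 genes passed (median 0.02). Egfr, the EGF receptor, fell from 1967 and 3286 to 1206 and 2066 (-0.69 ± 0.08, adjusted p = 0.0443), the only lowered gene of 40 growth factors and receptors (median -0.01).
The promoter of Egr2 is printed for its CArG box, the site of the ERK-responsive serum response factor, in capitals.
Egr2 promoter, chr20:21054392-21054691, minus strand: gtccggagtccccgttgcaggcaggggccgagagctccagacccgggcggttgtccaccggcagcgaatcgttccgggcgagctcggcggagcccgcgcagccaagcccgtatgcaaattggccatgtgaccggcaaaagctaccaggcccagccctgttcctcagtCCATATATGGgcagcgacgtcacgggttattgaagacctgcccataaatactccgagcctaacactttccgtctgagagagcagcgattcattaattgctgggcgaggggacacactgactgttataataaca
The box starts at -83. A CArG box was in 2 of the 20 promoters of lowered genes (10.0%), those of Egr2 and Etv1, in none of the 26 of raised genes, in 1.35% of the promoters of genes on the array and in 1.64% of all promoters.

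Glycolysis and mitosis were the lists with the lowest medians, and the experiments differed in both. Of 24 measured glycolytic and hypoxia-responsive genes 1 passed and 17 (70.8%) were lower at an unadjusted p under 0.05, against 7.43% of all genes. In both experiments 18 were lower (30.5% of all genes were). Their median was -0.70 in experiment 1 and -0.22 in experiment 2. Pfkl, a liver-type phosphofructokinase subunit, fell from 3902 and 2358 to 2143 and 1576 (-0.72 ± 0.09, adjusted p = 0.0467), and Ldha, lactate dehydrogenase, had 19722 and 13788 against 15018 and 10422 (-0.40 ± 0.06, adjusted p = 0.0695). Egln3, an oxygen-sensing hydroxylase, had 670.7 and 366 against 305.3 and 230 (-0.90 ± 0.14, adjusted p = 0.0695). Outside that count, a probe set of Pgk1, a glycolytic kinase, fell from 15446 and 8483 to 9299 and 5615 (-0.66 ± 0.08, adjusted p = 0.0397).
Of 27 measured mitotic genes none passed and 18 (66.7%) were lower at an unadjusted p under 0.05, against 7.43% of all genes. In both experiments 24 were lower (30.5% of all genes were). Their median was -0.14 in experiment 1, with members from -0.38 to 0.15, and -0.75 in experiment 2, with members from -1.03 to -0.36. Without TNFα the U0126 cultures gave medians of -0.32 and -0.57 for the same genes. Cenpf, a kinetochore protein, had 1157 and 1984 under TNFα and 951 and 971.9 with U0126, and Ccnb1, a mitotic cyclin, had 1374 and 1816 against 1151 and 1018 (-0.55 ± 0.15, adjusted p = 0.216). In both genes the second TNFα culture was the highest of the 8. None of 25 DNA replication genes passed, and their medians were 0.10 and -0.39 in the 2 experiments.

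**Figure D3:**
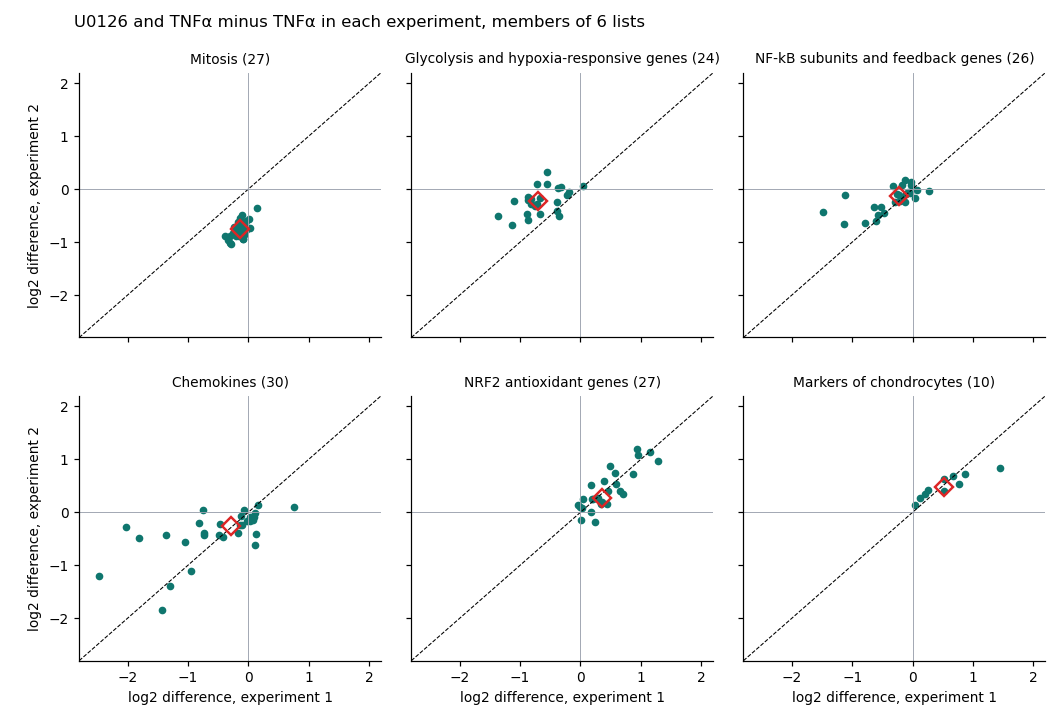
Members of 6 gene lists (number measured in brackets), placed by the log2 difference between U0126 with TNFα and TNFα in experiment 1 (horizontal) and experiment 2 (vertical), with the median of the list as an open diamond and the line of equality dashed. The mitotic genes sit lower in experiment 2 (medians -0.14 and -0.75), the glycolytic genes lower in experiment 1 (-0.70 and -0.22), and the chondrocyte markers lie above 0 in both.

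The remaining lists held few or no calls. Among 39 genes of BMP, GDF and TGF-β signalling Chrdl2 was the 1 that rose (median -0.04). None passed among 24 Wnt ligands and antagonists (median 0.001), 22 contractile and fibroblast-like genes (median 0.08), 22 genes of cholesterol and fatty acid synthesis (median -0.01) and 21 chaperones and genes of the unfolded protein response (median 0.02).

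**Figure D4:**
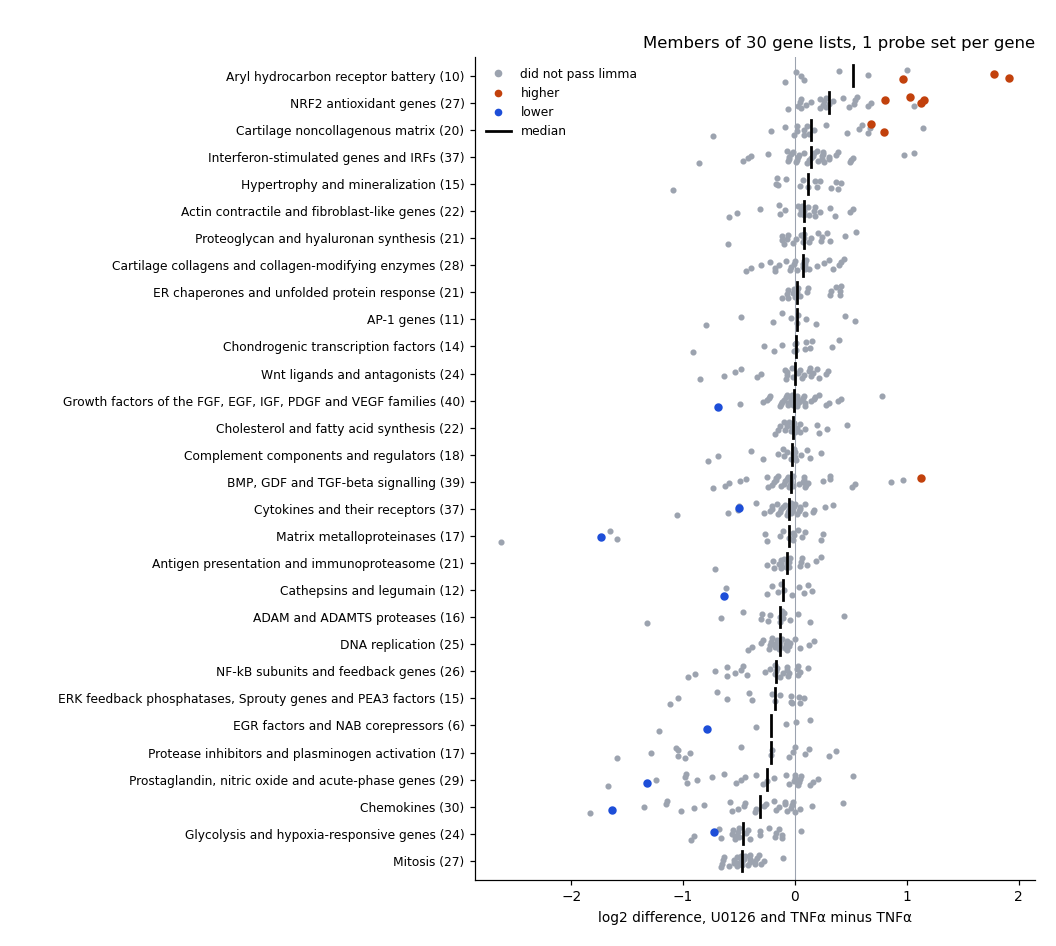
Log2 difference between U0126 with TNFα and TNFα for each member of 30 gene lists (1 probe set per gene, number measured in brackets), with the median as a black bar, orange for members that rose, blue for those that fell and grey for those that did not pass limma. The aryl hydrocarbon receptor battery has the highest median (0.52) and mitosis the lowest (-0.47), among lists chosen with earlier results of these data known.

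The effect of U0126 was then read without TNFα, in the DMSO and U0126 cultures, which share no array with the comparison above. The same model gave both effects, however, with the same estimate of the spread for a probe set. Probe sets that passed with TNFα were picked partly for a small spread, so their calls and signs without TNFα are no independent check. There limma called 18 probe sets (0.058%), every one of them upwards. Before adjustment the threshold of 0.05 was passed by 4118 (13.3%). Of the 40 probe sets raised with TNFα, all 40 were higher in both experiments without it and 13 were among the 18, with median differences of 0.84 and 0.68. Of the 39 lowered, 33 were lower in both experiments without TNFα and none was called there, with medians of -0.72 and -0.21. Over all probe sets, 31.0% were higher and 31.6% lower with U0126 in both experiments without TNFα. The difference between the effects was tested as an interaction, in which no probe set passed (smallest adjusted p = 0.499), while 2833 (9.13%) had an unadjusted p under 0.05. Over the 10 measured genes of the aryl hydrocarbon receptor battery the median effect was 0.52 with TNFα and 1.19 without it. By experiment these medians were 0.45 and 0.60 with TNFα, and 1.16 and 1.09 without it. For Nqo1 the effects were 1.92 with TNFα and 1.83 without (difference 0.09, 95% interval -0.28 to 0.45), and for Ahrr 1.78 and 1.72 (0.06, -0.26 to 0.37). For Acan they were 0.68 and 0.19 (0.49, 0.28 to 0.71), for Mmp9 -1.74 and -0.37 (-1.37, -2.05 to -0.69), for Ccl5 -1.63 and -0.15 (-1.49, -2.10 to -0.87) and for Ass1 -1.33 and 0.04 (-1.37, -1.81 to -0.93). These intervals leave out 0, but none was adjusted and none of the 4 differences passed the adjusted test. For Egr2 the effects were -0.78 and -0.88 (0.10, -0.21 to 0.41).

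In the 4 cultures without TNFα, Mmp9 lay between 75.6 and 123.8, Ass1 between 174.9 and 215.4 and Ccl5 between 337.4 and 465.1. Against DMSO, TNFα alone gave differences of 1.69 for Mmp9, 2.11 for Ass1 and 2.09 for Ccl5, and of -0.56 for Acan, -0.80 for Cnmd and -1.0 for Chrdl2. These share the TNFα arrays with the effect of U0126 and are set beside it only as values. TNFα changed Nqo1 by -0.15 (adjusted p = 0.398) and Ahrr by -0.09 (adjusted p = 0.570). Zfp950l1 and Aldh3a1 were singled out after their values were seen, for their small unadjusted p-values in the difference between the 2 effects (1.9e-05 and 6.5e-05). U0126 lowered Zfp950l1, a zinc finger gene, by 0.67 in TNFα-treated cells (adjusted p = 0.0303), while without TNFα the gene was 0.35 higher with U0126. TNFα alone raised Zfp950l1 by 1.24 over DMSO (adjusted p = 0.000608). Aldh3a1, an aldehyde dehydrogenase of the aryl hydrocarbon receptor battery, had 1156 and 1159 under TNFα and 1573 and 1473 with U0126 added (0.40, adjusted p = 0.159), against 370 and 388.5 with DMSO and 979.1 and 1178 with U0126 (1.5, adjusted p = 0.00544).

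**Figure D5:**
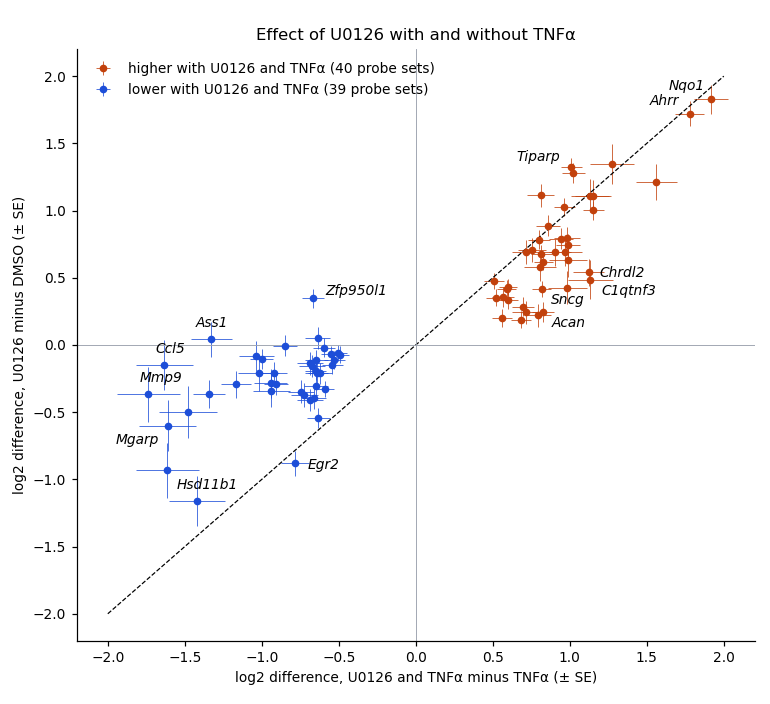
The 79 probe sets that passed limma in TNFα-treated cells, placed by the log2 difference for U0126 with TNFα (horizontal) and without it (vertical), with standard errors as bars and equality dashed. The raised probe sets (orange, 40) are all above 0 on both axes, and 34 of these 40 and 38 of the 39 lowered ones (blue) have a smaller difference without TNFα, in a set chosen for passing with it.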

How the data were processed

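RNA of 8 chondrocyte cultures was hybridised to Affymetrix RAT230_2.0 arrays, 1 per treatment (DMSO, U0126, TNFα, U0126 and TNFα) and experiment. The authors deposited linear intensities, 1 value for a probe set on an array. The submitters' processing notes give RMA without a version, and further GeneSpring steps of the methods (division by chip median and by DMSO) are not seen in the values, whose array medians lie between 365.1 and 378.2. The 57 control probe sets were left out and log2 values were centred on each array's median. Of the probe sets 20826 carried 1 gene symbol in the array's annotation of 2016, 436 several and 9780 none, and genes are represented by their brightest probe set over the 8 arrays, unless another is named. limma 3.58.1 (R 4.3.3) was fitted to all 8 arrays with treatment and experiment as terms (3 residual degrees of freedom), and p-values were adjusted by Benjamini-Hochberg over 31042 probe sets. Replicate numbers pair the cultures, because in the methods an array is divided by the DMSO array made in the same experiment. Deviations of arrays with the same number correlated at 0.728 to 0.829. The fold rule, which has no p, counts 1.5-fold differences in the same direction in both experiments (the methods' threshold is 1.45). With 2 arrays a group, their number limits the precision, and no detection calls were used, so dim values may be background.

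The named genes were the 12 largest called rises and falls, the 10 largest by the fold rule each way, up to 4 members of each list with the smallest p, and the genes the study names for its arrays. A few others are named for contrast among list members or, where said, after their values were seen. Members and gene lists were chosen with earlier results of these data known. Motifs were counted on both strands of RefSeq (GRCr8) promoters. Alternatives were the block, normalization, a filter on dim probe sets, the prior variance, the fold threshold, the arrays fitted and the probe set of a gene.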

Additional observations from a re-analysis of the deposited data

How the results depend on the processing

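Without the replicate block, which pairs the cultures of an experiment, 0 probe sets passed limma (0 higher, 0 lower) and 1013 had an unadjusted p under 0.05. With only the 4 arrays compared, a fit with 1 residual degree of freedom, 291 passed (112 higher, 179 lower), among them 78 of the 79. Without the dimmest 40% of probe sets 22 passed lower and 57 in all. Quantile normalization gave 72, no centring 78, a trended prior variance 113 and a robust one 81, of which 70, 73, 79 and 73 were among the 79. Leaving out 1 array in turn gave 0 to 416 in all, 0 to 115 higher and 0 to 301 lower, with 0 without either U0126 and TNFα array (3525 and 1929 at an unadjusted p under 0.05) and 416 without the second TNFα array. A lone array is assumed there to vary like the other groups. The test of the difference between the effects gave 0 under every setting except 2 without the second TNFα array, so 0 to 2 over the arrays left out; with only the 4 arrays it could not be fitted.

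The fold rule gave 592 probe sets at 1.3-fold (222 higher, 370 lower), 237 at the methods' threshold, 32 at 2-fold (7 higher, 25 lower) and 431 for the mean of the experiments (125 higher, 306 lower). A single experiment gave 582 to 635 (175 to 259 higher, 323 to 460 lower). Other probe sets of Csf1 (0.012) and Egr2 (0.113) had the opposite sign. Among the genes named in the text, the 33 that passed at their brightest probe set all lost their call without the block, and again without either array of U0126 with TNFα, with no change of sign. The causes were not tested.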
